A study of Rana pirica with 14 samples.

Results

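The proteasome and the COP9 signalosome were covered by 76 of the 15611 probe sets of the array. These were all probe sets with a single annotated symbol that, read without its suffix .L or .S, names a proteasome subunit, assembly factor, activator or inhibitor (the psma, psmb, psmc, psmd, psme, psmf and psmg genes, adrm1 and pomp) or a signalosome subunit (the cops genes and gps1). They stood for 50 genes, of which 30 had 1 probe set and 20 had several, 46 in all. The suffix was .L for 43 and .S for 33, which marks the gene copy of the long or the short chromosome of a Xenopus laevis pair. By role, 13 probe sets (7 genes) read the alpha rings of the 20S core, 9 (8 genes) its beta rings, 16 (8 genes) the base and 13 (7 genes) the lid of the 19S particle, 7 (7 genes) assembly factors, 5 (5 genes) activators and the inhibitor, and 13 (8 genes) the signalosome. A further 7 probe sets named both copies of 1 such gene, and were not counted as members.

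Tail tissue of Rana pirica tadpoles without growing hind limbs was collected on day 8. The groups were tadpoles kept with a caged dragonfly larva for 8 days (Drago, 3 arrays) or with larval salamanders for 8 days (Salam, 3 arrays), tadpoles kept for 4 days with either predator and then for 4 days without it (−Drago and −Salam, 3 arrays each), and tadpoles never given a predator (Cont, 2 arrays). According to the paper, larval salamanders bit some tadpoles and killed a few, whereas the caged dragonfly larvae harmed none. The part of this in the differences between groups was not tested. Because the arrays were designed for another frog, a name describes the probe set, and which Rana pirica transcript it reads was not tested. Arrays are named as biological replicates in the labels, whereas the methods describe pooled tissue for each treatment, so p-values measure only the spread between arrays.

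The proteasome is the protease that degrades proteins tagged with ubiquitin. Its barrel-shaped 20S core holds the peptide-cutting beta subunits between rings of alpha subunits that gate the entrance, and the 19S particle at its ends recognizes the tagged protein, removes the ubiquitin in its lid and unfolds the chain with the ATPases of its base. The COP9 signalosome resembles the lid in its architecture and removes the ubiquitin-like protein NEDD8 from cullins, the scaffolds of a large family of ubiquitin ligases. In tadpoles, the tail is known as a tissue that is later degraded at metamorphosis, and in muscle the proteasome is a main route of protein breakdown.

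The values are log2 MAS5 signals centred by the authors on the median of every probe set, so 0 is the middle of its 14 arrays, and levels cannot be compared between genes. A difference is the mean of the first-named group minus that of the second, and a fold is 2 to the power of that difference, with a minus sign where the first group was lower. In a bulk tissue, fewer cells of a type and less RNA per cell cannot be told apart. The added poly-A transcript Dap was high on 6 arrays (Drago 1 and 2, Salam 1 and 2, −Salam 1 and Cont 1) and low on the other 8, among them all −Drago arrays. Over the 6 lists of markers for muscle, epidermis, immune cells, erythrocytes, notochord and nerve, the list medians on single arrays lay between -0.88 and 0.73, and since the signal level is lost, whether the defining markers of tail tissue were present could not be checked.

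No member passed a limma test at a Benjamini-Hochberg adjusted p under 0.05 over the 15491 probe sets tested, neither in the F test over the 5 groups nor in any of the 7 comparisons between groups. The background was as low, with 0.0% of all probe sets called in the F test and in 6 of the 7 comparisons, and 0.00646% (1 probe set, no member) in Drago against Salam. The smallest adjusted p of a member was 0.594 in the F test and 0.601 in the comparisons. At an unadjusted p under 0.05, 6 of 76 members (7.89%) stood out in the F test, against 5.86% of all probe sets. They were psma2.L, gps1.L, psmd14.S, psmd14.L, psmd12.S and adrm1.L.

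The members lay on both sides of Cont. At an unadjusted p under 0.05, 5 members (6.58%) differed between Drago and Cont, against a background of 5.65%, with 3 higher (background 3.0%) and 2 lower (background 2.65%). Between Salam and Cont it was 6 members (7.89%) against 5.0%, with 3 higher (2.61%) and 3 lower (2.39%). Between −Drago and Cont it was 5 members (6.58%) against 4.94%, with 1 higher (2.32%) and 4 lower (2.62%). Between −Salam and Cont it was 8 members (10.5%) against 5.69%, with 6 higher (2.99%) and 2 lower (2.7%). The median difference of the 76 members was 0.08 for Drago, -0.10 for Salam, 0.12 for −Drago and 0.13 for −Salam, beside medians of all probe sets between -0.02 and 0.0. These 4 comparisons share the 2 Cont arrays.

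More than 5 fold from Cont lay 3 members for Drago (3.95%, background 2.03%), 2 for Salam (2.63%, background 1.93%), 2 for −Drago (2.63%, background 1.68%) and 3 for −Salam (3.95%, background 2.01%). They were psma2.L, adrm1.L and psmc1.L in Drago, all higher, and in Salam gps1.L, higher, and cops2.L, lower. In −Drago they were psmd14.L and cops8.S, both lower, and in −Salam psma2.L and adrm1.L, higher, and cops2.L, lower. The arrays of the group and of Cont did not overlap for 23 members in Drago (30.3%, background 19.8%), 12 above (background 9.95%) and 11 below Cont (background 9.84%). This held for 13 in Salam (17.1%, background 20.1%), 19 in −Drago (25%, background 20.5%) and 18 in −Salam (23.7%, background 20%).

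**Figure D1:**
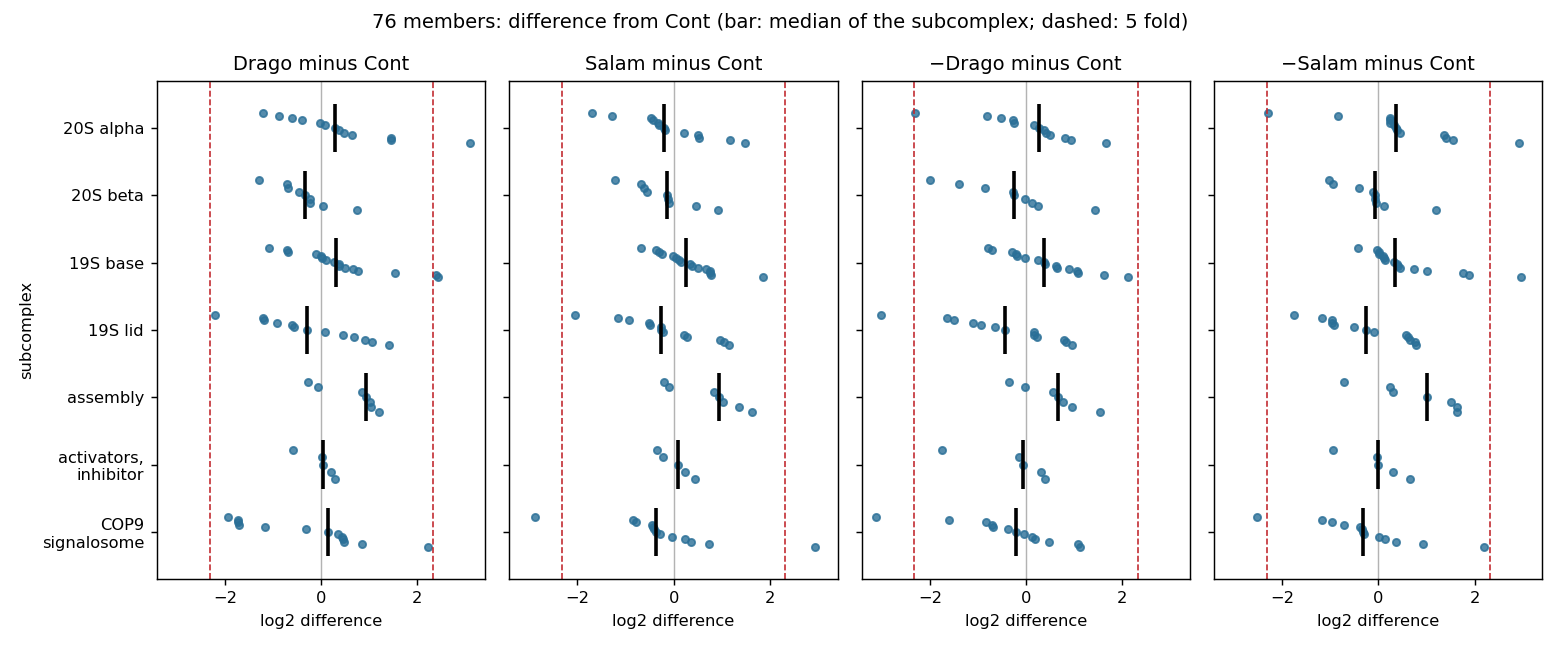
Difference of the group mean from Cont (log2, x axis) for each of the 76 members (points), by subcomplex (rows), in the 4 comparisons with Cont. Black bars are the medians of the subcomplexes and dashed lines mark 5 fold; points lie on both sides of 0, and 3, 2, 2 and 3 of them lie beyond the dashed lines for Drago, Salam, −Drago and −Salam.

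Among the alpha subunits, psma2.L had the smallest p of all members in the F test (adjusted p = 0.594). psma2 encodes alpha 2, a subunit of the outer ring of the core. Its values were 2.02, 0.83 and 1.61 on the Drago arrays, -1.92, -1.58 and 0.20 in Salam, -1.92, -1.22 and -0.20 in −Drago, 0.40, 1.91 and 1.59 in −Salam, and -1.90 and -1.33 in Cont. Every Drago and −Salam array lay above every Salam, −Drago and Cont array. The difference from Cont was 3.10 ± 0.77 (SE) in Drago, an 8.59 fold (adjusted p = 0.601), and 2.92 ± 0.77 in −Salam, a 7.56 fold (adjusted p = 0.617). Salam and −Drago differed from Cont by 0.52 ± 0.77 and 0.50 ± 0.77 (adjusted p = 0.999 in both).

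Removal of the 2 predators gave differences of opposite sign for this probe set. Drago exceeded −Drago by 2.60 ± 0.69 (adjusted p = 0.637), whereas Salam minus −Salam was -2.40 ± 0.69 (adjusted p = 0.728). The test of the difference between these differences gave 5.0 ± 0.98 (adjusted p = 0.435), and in that test 3 members (3.95%) had an unadjusted p under 0.05, against 5.55% of all probe sets. Drago was also above Salam by 2.58 ± 0.69 (adjusted p = 0.641). Within the arrays with high Dap, Drago minus Cont was 3.32 (2 arrays against 1), and within those with low Dap 2.95 (1 against 1).

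The other 12 alpha probe sets lay between -1.69 and 1.67 in their differences from Cont in Drago, Salam and −Drago, except psma3.S at -2.30 in −Drago. psma3 encodes alpha 3, and psma3.S read 0.67, -0.50 and 1.80 in Drago, -0.08, -0.69 and 1.51 in Salam, -2.36, -0.47 and 0.53 in −Drago, 0.08, -1.33 and -1.0 in −Salam, and 1.51 and 1.56 in Cont. All −Drago and −Salam arrays were below both Cont arrays, and the differences were -2.30 (adjusted p = 0.959) and -2.29 (adjusted p = 0.87). The other copy, psma3.L, differed from Cont by 0.42 in −Drago and 0.44 in −Salam. For psma6.S the 3 Salam arrays read 0.31, 0.49 and 0.34 and the 3 −Salam arrays 0.32, 0.50 and 0.11, against -0.62 and -1.58 in Cont, with differences of 1.48 (adjusted p = 0.869) and 1.41 (adjusted p = 0.87). Its partner psma6.L differed from Cont by -0.31 and 0.36 in these groups.

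Of the 9 beta probe sets none lay more than 5 fold from Cont in any group. This says little, as between 1.68% and 2.03% of all probe sets did so in each comparison. An unadjusted p under 0.05 in a comparison with Cont was found for 1 of the 9, beside between 4.94% and 5.69% of all probe sets. This was psmb1.S, which encodes a non-catalytic subunit of the inner ring and read -0.20, -1.40 and -0.89 in −Drago, against 0.09 and 2.23 in Cont, a difference of -1.99 (adjusted p = 0.959). All 3 −Drago arrays were below both Cont arrays, which were far apart from each other. psmb5.L and psmb6.L, catalytic subunits of the constitutive core, differed from Cont by between -0.67 and 0.12 over the 4 groups. psmb7.S, for the remaining catalytic subunit of that core, gave 0.74 for Drago, 0.93 for Salam, 1.43 for −Drago and 1.19 for −Salam, the highest difference of a beta probe set in every group, none with an unadjusted p under 0.05. Its 2 Cont arrays were far apart, at 0.29 and -2.90. psmb8.L and psmb9.S, the subunits that replace catalytic ones in the immunoproteasome of vertebrates, gave differences of -0.23 and 0.03 for Drago, -0.13 and -0.10 for Salam, -1.39 and -0.27 for −Drago, and -0.95 and -0.12 for −Salam, none with an unadjusted p under 0.05. The median of the beta probe sets was -0.34 for Drago, -0.13 for Salam, -0.25 for −Drago and -0.08 for −Salam.

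In the base of the 19S particle, adrm1.L had its lowest group mean in Cont. adrm1 encodes a ubiquitin receptor of the base that also recruits a deubiquitinase. It read -1.2, 0.01 and 0.79 in Drago, -0.56, -0.01 and -1.43 in Salam, 0.72, 0.20 and -2.08 in −Drago, 0.43, 0.16 and 0.73 in −Salam, and -1.90 and -3.14 in Cont. Of the 12 arrays of exposed tadpoles, −Drago 3 alone overlapped with Cont. The differences from Cont were 2.39 ± 0.85 in Drago (5.24 fold, adjusted p = 0.808), 1.86 ± 0.85 in Salam (3.62 fold, adjusted p = 0.98), 2.13 ± 0.85 in −Drago (4.39 fold, adjusted p = 0.959) and 2.96 ± 0.85 in −Salam (7.80 fold, adjusted p = 0.641). Since all 4 rest on the same 2 Cont arrays, they are not separate observations of a low Cont.

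Both probe sets of the other copy, adrm1.S, read differently. The regular one stood at 0.02 for Drago, -0.37 for Salam, -0.19 for −Drago and 0.01 for −Salam relative to Cont, and that with the suffix _x_at, which may read further transcripts, at 0.26, 0.35, 0.39 and 0.11. Their arrays scattered within the groups by 0.41 and 0.20 (residual SD), against 0.97 for adrm1.L.

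psmc1.L encodes an ATPase of the base. Its _x_at probe set read 2.63, 3.17 and -0.88 in Drago, 0.06, 1.29 and -1.68 in Salam, -1.45, -1.29 and -1.76 in −Drago, -0.06, 1.01 and 2.33 in −Salam, and 0.51 and -2.09 in Cont. Drago 1 and 2 were high, Drago 3 lay between the Cont arrays, and the −Drago arrays were all low. Drago minus Cont was 2.43 ± 1.19 (5.38 fold, adjusted p = 0.89), and Drago minus −Drago 3.14 ± 1.07 (8.80 fold, adjusted p = 0.759). Drago 1 and 2 were also the Drago arrays with high Dap, a level no −Drago array had. With the Dap split as a covariate Drago minus −Drago was 2.01, no longer with an unadjusted p under 0.05. Within the arrays with low Dap it was 0.61, from 1 Drago array. The regular probe set of the same copy gave 0.78 (adjusted p = 0.985).

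Across the 16 base probe sets the median difference from Cont was 0.31 for Drago, 0.25 for Salam, 0.38 for −Drago and 0.35 for −Salam, and 11, 11, 10 and 14 of them were above 0. Over all 15491 probe sets, 7648, 7610, 7712 and 7660 were above 0. Of the base probe sets 0 were lower than Cont at an unadjusted p under 0.05. The lower shares over all probe sets were 2.65%, 2.39%, 2.62% and 2.7%, so 0 of 16 says little. Of the other ATPases, psmc5.L had 1 probe set at 1.75 in −Salam (adjusted p = 0.87), the _x_at one, while the regular probe set was at 0.10. psmd1.L and psmd2.L, for the 2 large scaffold subunits, differed from Cont by between -0.78 and 1.02.

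In the lid, psmd14 encodes the deubiquitinase that cuts the ubiquitin chain off the substrate, and its 2 probe sets gave different patterns. psmd14.L read -1.30, 1.35 and 1.14 in Drago, 0.18, -0.06 and -0.01 in Salam, -2.87, -3.19 and -2.05 in −Drago, -2.80, 0.20 and 0.01 in −Salam, and 0.35 and 0.28 in Cont. All 3 −Drago arrays were low, as was −Salam 1, and the −Drago arrays did not overlap with Drago or Cont. The difference of −Drago from Cont was -3.02 ± 0.92 (-8.12 fold, adjusted p = 0.953), and Drago minus −Drago was 3.10 ± 0.83 (8.59 fold, adjusted p = 0.637). Within the arrays with low Dap, Drago minus −Drago was 3.85, from 1 Drago array.

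psmd14.S read 2.36, -0.30 and 1.78 in Drago, 0.64, -1.19 and -1.33 in Salam, 0.30, 0.54 and 1.63 in −Drago, -1.77, -1.37 and -2.53 in −Salam, and -0.73 and 0.46 in Cont. Here −Salam was lowest, with each array below every array of the other groups, and −Drago was not low. The F test gave an adjusted p of 0.704, Drago minus Salam was 1.90 ± 0.77 (adjusted p = 0.855), and −Salam minus Cont was -1.75 ± 0.86 (-3.37 fold, adjusted p = 0.878). In −Drago minus Cont the 2 copies stood 3.99 apart, at -3.02 and 0.96, the widest gap between any 2 probe sets of 1 gene.

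psmd12.S, for a structural lid subunit, was below 0 on every array of tadpoles with the predator still present. It read -0.24, -1.33 and -0.50 in Drago, -0.22, -0.81 and -0.60 in Salam, 0.22, 1.52 and 1.5 in −Drago, 1.38, -0.85 and 1.24 in −Salam, and 1.39 and 1.65 in Cont. The Drago and Salam arrays were all below 0, all −Drago and Cont arrays above 0, and −Salam 2 lay among the Drago and Salam arrays. The differences from Cont were -2.21 ± 0.73 in Drago (-4.63 fold, adjusted p = 0.803) and -2.06 ± 0.73 in Salam (-4.18 fold, adjusted p = 0.86), against -0.44 in −Drago (adjusted p = 0.999) and -0.93 in −Salam (adjusted p = 0.97). Drago minus −Drago was -1.78 ± 0.65 (adjusted p = 0.813), and Salam minus −Salam was -1.14 (adjusted p = 0.948). It was the only probe set of its gene among the members, so no second one could be set beside it.

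The remaining 10 lid probe sets lay between -1.64 and 1.16 in all 4 differences from Cont, with no unadjusted p under 0.05. psmd6.L and psmd6.S, for another structural subunit, were both above Cont in every group, by between 0.23 and 1.16, and both probe sets of psmd7.L, for the inactive partner of psmd14, were below Cont in every group, by between -1.5 and -0.27. Each of these comparisons rests on the same Cont arrays.

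**Figure D2:**
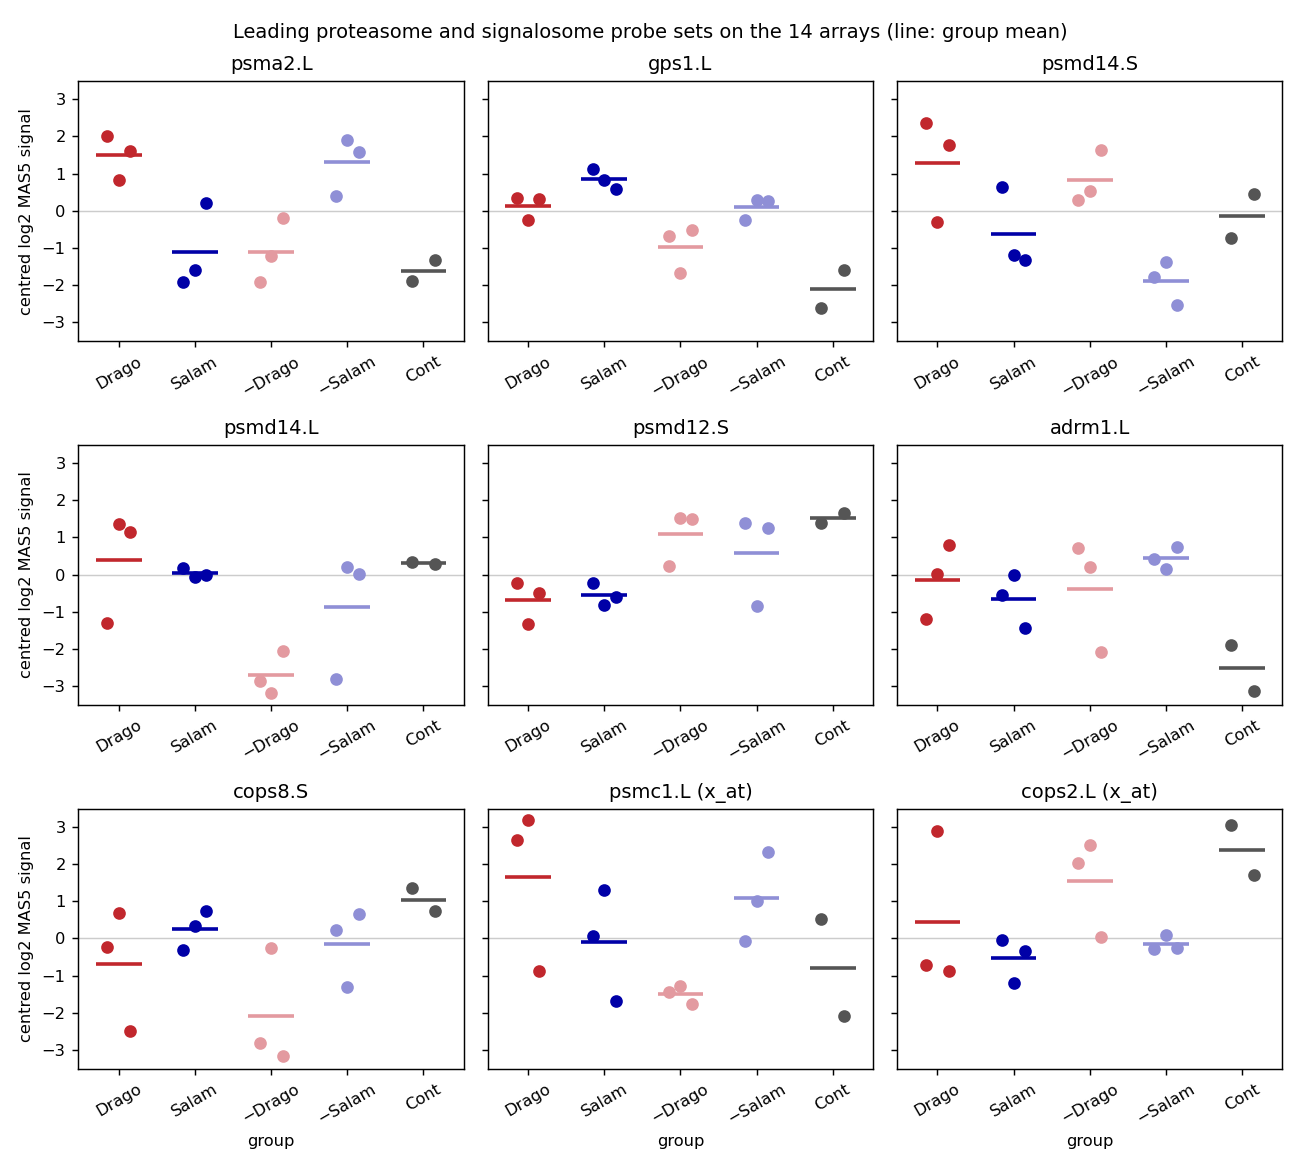
Centred log2 signal (y axis) of 9 leading members on each of the 14 arrays (points) in the 5 groups (x axis), with the group means as lines. psma2.L was high in Drago and −Salam, gps1.L and adrm1.L were low in Cont, and psmd14.L was low on all 3 −Drago arrays.

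Of the assembly factors, psmd10.L and psmd9.S had the smallest p. psmd10, also known as gankyrin, is a chaperone of the base, and psmd10.L read 1.63, 0.23 and 0.81 in Drago, 0.09, -0.86 and -0.77 in Salam, -0.20, 1.08 and 0.50 in −Drago, -0.09, 0.44 and -0.39 in −Salam, and -0.32 and -0.30 in Cont. The Drago arrays all lay above those of Salam and Cont, with a difference of 1.41 ± 0.56 from Salam (adjusted p = 0.852) and of 1.2 ± 0.63 from Cont (adjusted p = 0.898). psmd9.S, another base chaperone, read -0.08, 0.74 and 1.14 in −Salam, against -1.09 and -0.97 in Cont, a difference of 1.63 (adjusted p = 0.866). The median over the 7 assembly probe sets was 0.94 for both Drago and Salam, 0.66 for −Drago and 1.01 for −Salam, and 5, 5, 5 and 6 of them were above 0, and in each of the 4 comparisons this was the highest median of any subcomplex. Over all 15491 probe sets, 7648, 7610, 7712 and 7660 were above 0 in these comparisons. On Cont 1 and 2 the medians of the assembly probe sets were -0.38 and -0.61. They were -0.06, -0.36 and 0.63 on the Drago arrays and 0.08, 0.45 and -0.29 in Salam. In −Drago they were -0.53, 0.40 and 0.17, and in −Salam 0.15, 0.44 and -0.39, so single arrays of both removal groups lay below Cont 1. The assembly probe sets were also the most scattered, with a median residual SD of 1.31, against 0.93 over all members and 0.98 over all probe sets. psmd5.L, for a further base chaperone, had the highest of any member (1.79) through 1 array of −Drago at -4.29 and 1 of −Salam at -3.83.

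The activators and the inhibitor each had 1 probe set. psme3.L, for the nuclear activator of the core, read 0.21, -0.11 and 1.65 in Drago, 1.5, 1.35 and 0.11 in Salam, -0.79, -1.88 and -0.89 in −Drago, -0.50, -1.78 and 1.12 in −Salam, and -0.14 and 1.24 in Cont. The −Drago arrays were below every Drago, Salam and Cont array. Drago minus −Drago was 1.77 ± 0.77 (adjusted p = 0.848) and −Drago minus Cont -1.74 ± 0.86 (adjusted p = 0.999). psme1.S, for an interferon-inducible activator in mammals, psme4.L, for an activator of another family, and psmf1.L, for the inhibitor, differed from Cont by between -0.58 and 0.65 in the 4 groups.

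In the signalosome, gps1.L (CSN1, a scaffold subunit) had the smallest p of any member in a comparison. It read 0.35, -0.26 and 0.31 in Drago, 1.13, 0.84 and 0.58 in Salam, -0.69, -1.68 and -0.52 in −Drago, -0.26, 0.28 and 0.26 in −Salam, and -2.60 and -1.59 in Cont. Cont was lowest, −Drago came next with 1 array just below the higher Cont array, and the Salam arrays lay above all others. Salam minus Cont was 2.94 ± 0.59 (7.70 fold, 95% interval 1.69 to 4.20, adjusted p = 0.728), Drago minus Cont 2.23 ± 0.59 (4.69 fold, adjusted p = 0.601) and −Salam minus Cont 2.19 ± 0.59 (4.55 fold, adjusted p = 0.617). −Drago minus Cont was 1.13 ± 0.59 (adjusted p = 0.999). Within the arrays with high Dap, Salam minus Cont was 3.59 (2 arrays against 1), and within those with low Dap 2.17 (1 against 1). gps1 had no further probe set among the members.

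cops8.S, for the small subunit CSN8, read -0.23, 0.69 and -2.50 in Drago, -0.32, 0.33 and 0.74 in Salam, -2.82, -0.27 and -3.16 in −Drago, 0.23, -1.32 and 0.64 in −Salam, and 1.34 and 0.73 in Cont. −Drago minus Cont was -3.11 ± 1.0 (-8.66 fold, adjusted p = 0.953), with 2 of 3 −Drago arrays near the bottom of all 14 and −Drago 2 close to 0. The other copy, cops8.L, was at -0.68 in that comparison (adjusted p = 0.999).

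cops2.L, for the subunit CSN2 that helps to bind the cullin complex, was read by 4 probe sets. That with the suffix _x_at read -0.71, 2.88 and -0.89 in Drago, -0.04, -1.21 and -0.33 in Salam, 2.03, 2.52 and 0.04 in −Drago, -0.29, 0.09 and -0.26 in −Salam, and 3.04 and 1.69 in Cont. Salam and −Salam lay below Cont without overlap, by -2.89 ± 1.03 (-7.44 fold, adjusted p = 0.862) and -2.52 ± 1.03 (-5.73 fold, adjusted p = 0.87). The other 3 probe sets of cops2.L gave -0.41, -0.03 and 0.24 in Salam and -0.72, 0.01 and -0.35 in −Salam.

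cops7b.S, for one form of the subunit CSN7, read 0.29, 0.34 and 0.14 in Drago, -2.49, -0.51 and -0.07 in Salam, 0.55, -0.49 and -0.22 in −Drago, -0.01, 0.57 and 0.01 in −Salam, and 0.42 and -0.77 in Cont. Drago minus Salam was 1.28 ± 0.64 (adjusted p = 0.89) and rested largely on Salam 1, without which it was 0.55. cops7b.L went the other way in that comparison, at -1.44 (adjusted p = 0.865), through Drago arrays at -1.51, -0.33 and -3.00. cops5.S, for the subunit that cuts NEDD8 off the cullin, differed from Cont by between -1.73 and -0.44 with no unadjusted p under 0.05. Its 2 Cont arrays were far apart, at 0.06 and 2.55. cops3.L differed from Cont by between -0.38 and 0.35.

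Between continued exposure and removal, 7 members (9.21%) had an unadjusted p under 0.05 in Drago against −Drago, with a background of 5.74%, and 1 (1.32%, background 5.49%) in Salam against −Salam, which was psma2.L. Between Drago and Salam it was 4 members (5.26%, background 5.71%). The 7 were 5 higher in Drago (background 3.18%), psma2.L, psmc1.L, psmd14.L, psmd3.S and psme3.L, and 2 lower (background 2.56%), psmd12.S and cops7b.L. For psmd3.S this was 1 probe set at 1.34 (adjusted p = 0.866), while the other of the same copy went the other way, at -1.09 (adjusted p = 0.962). The arrays of Drago and −Drago did not overlap for 16 members (21.1%, background 10.6%), 10 higher (background 5.45%) and 6 lower (background 5.16%) in Drago, those of Salam and −Salam for 8 (10.5%, background 10.1%), and those of Drago and Salam for 10 (13.2%, background 10.3%). Whether the first 2 of these counts differ was not tested. With 3 arrays against 3, an exact permutation test of a single value cannot go below a two-sided p of 0.1, and with 3 against 2 below 0.2.

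The 20 genes with several probe sets gave 33 pairs, 15 of the same copy and 18 of .L and .S. In Drago minus Cont the 2 members of a pair had the same sign in 17 and opposite signs in 16, in Salam minus Cont in 14 and 19, in −Drago minus Cont in 16 and 17, and in −Salam minus Cont in 23 and 10. The median gap between them was 1.36, 0.96, 0.84 and 0.86 on the log2 scale. Over all probe sets, 1 difference from Cont had a median standard error of 0.86. A gap is taken between 2 such differences and can scatter more than either. Whether the gaps exceed that scatter was not tested. In none of the 7 comparisons did both probe sets of a pair have an unadjusted p under 0.05. This says little, as only 1.32% to 10.5% of members reached that limit in a comparison. Pairs over all probe sets were not counted. Where pairs share a gene with 3 or 4 probe sets, they share probe sets too, so the 33 pairs are not independent.

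**Figure D3:**
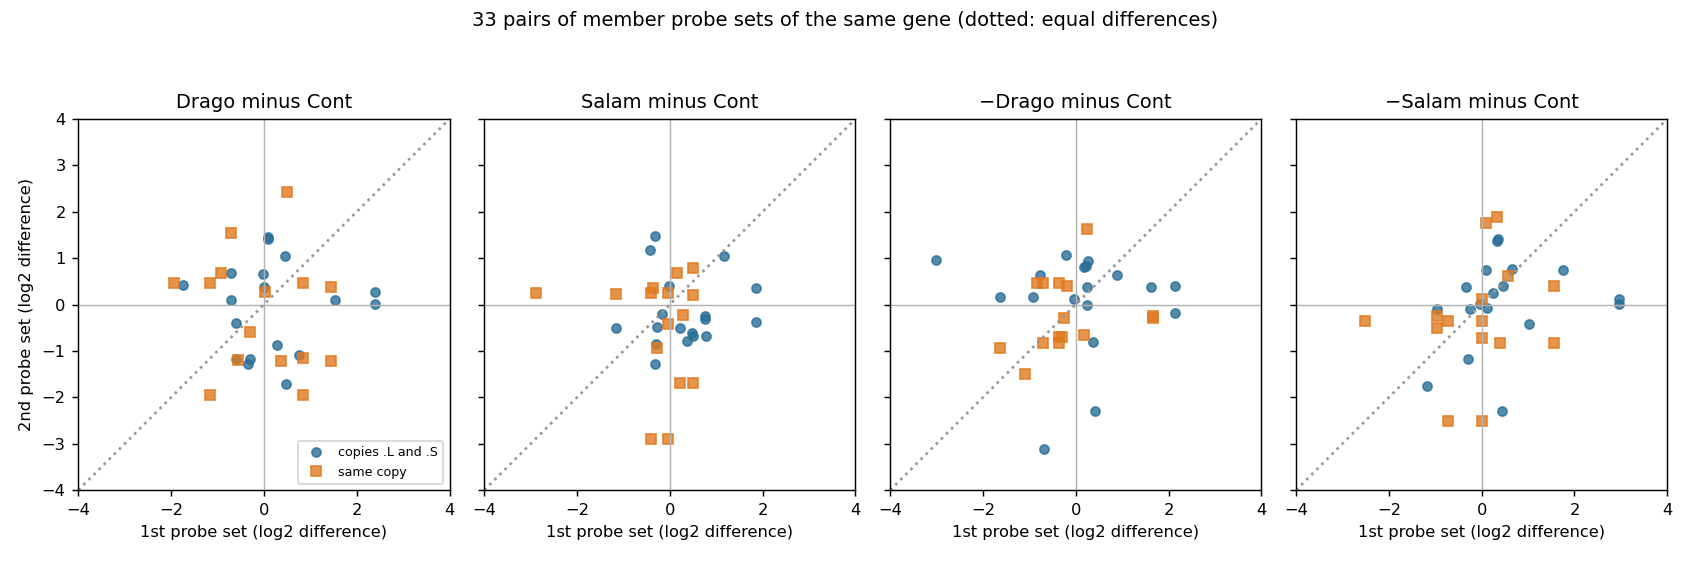
For 33 pairs of member probe sets of 1 gene, the difference from Cont (log2) of the first probe set (x axis) against that of the second (y axis), in each of the 4 groups, with pairs of the copies .L and .S as circles and pairs of the same copy as squares (which probe set is first has no meaning). Points on the dotted line would be equal; 17, 14, 16 and 23 pairs have the same sign in Drago, Salam, −Drago and −Salam.

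For 17 of 76 members (22.4%) the 95% intervals of all 4 differences from Cont lay within 5 fold on both sides, as they did for 20.2% of all probe sets. They were spread over all roles, with 5 alpha, 2 beta, 4 base and 1 lid probe set, 1 assembly factor, 3 of the activators and inhibitor, and 1 of the signalosome. Among them were psma7.L, psmc4.L, psmb5.L and psme4.L. The intervals leave room for smaller changes, for example -1.82 to 0.60 for psma7.L in Drago. The scatter within groups was under the lower quartile of all probe sets (0.74) for 23 members (30.3%) and over the upper quartile (1.2) for 15 (19.7%).

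**Figure D4:**
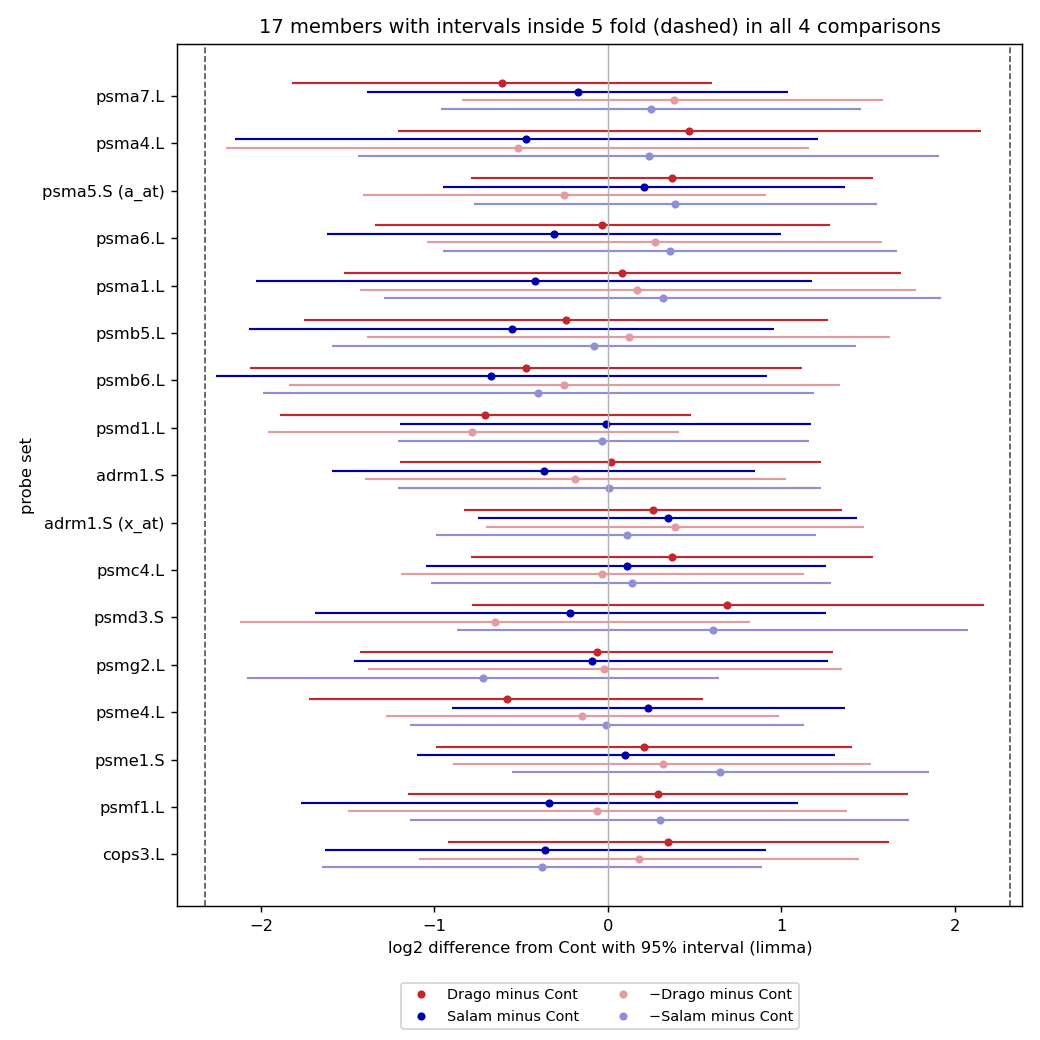
Differences from Cont (points, log2) with 95% intervals from limma (lines) for the 17 members whose intervals stayed within 5 fold (dashed lines) in all 4 comparisons, with Drago at the top of each set of lines, then Salam, −Drago and −Salam. All the intervals shown include 0.

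Around the complexes, 4 lists of partners, regulators or relatives were counted in the same way, beside 5.65% of all probe sets for Drago, 5.0% for Salam, 4.94% for −Drago and 5.69% for −Salam. A further list, of ligases for muscle protein breakdown, matched only 1 probe set, with no unadjusted p under 0.05 in these comparisons. Ubiquitin and proteasome partners (21 probe sets, 13 genes) had 0 for Drago, 1 for Salam, 2 for −Drago and 1 for −Salam that differed from Cont at an unadjusted p under 0.05, with medians of 0.10, -0.25, 0.03 and -0.05. Cullins (the targets of the signalosome), NEDD8 and their enzymes, 16 probe sets of 14 genes, had 0 in each. Regulators of proteasome genes (12 probe sets, 8 genes) had 1 in Drago and 0 in the other groups. Some, not all, subunits of the translation factor eIF3 share protein domains with lid and signalosome. The list of all eIF3 subunits (21 probe sets, 11 genes) had 0, 3, 1 and 2, all higher. Among them were eif3i.L at 2.29 ± 0.73 and eif3a.L at 2.23 ± 0.69 in −Salam (adjusted p = 0.75 and 0.71). Those eIF3 counts were 0.0%, 14.3%, 4.76% and 9.52% of its probe sets, and no difference from the array-wide shares was tested.

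Some cell type markers stood apart on the same arrays as the members above. The 82 marker probe sets (52 genes) held 8 with an unadjusted p under 0.05 in Drago against Cont (9.76%), 5 in Salam (6.1%), 6 in −Drago (7.32%) and 5 in −Salam (6.1%), and 6 in Drago against −Drago (7.32%). Over all probe sets these shares were 5.65%, 5.0%, 4.94%, 5.69% and 5.74%. In Cont, where gps1.L and adrm1.L were low, irf1.L, an interferon regulatory factor, was high, at a mean of 2.89. Its means were -0.02 in Drago and 0.03 in −Drago, 0.37 in Salam and -0.14 in −Salam (adjusted p against Cont of 0.617 or more). Of the 13 immune probe sets 4 lay above Cont in Drago (up to 1.71) and 6 in −Drago (up to 1.3). In Salam 5 did so (up to 1.4), and in −Salam 2 (up to 1.96). At an unadjusted p under 0.05, 1 was higher in Drago and 0 in each other group (all probe sets 2.32% to 3.0%). Lower at that limit were 2 in Drago, among them irf1.L, and irf1.L alone in each other group (all probe sets 2.39% to 2.7%). The median of all 13 immune probe sets was between -0.47 and 0.12 on the Drago arrays, -0.33 and 0.14 in Salam, 0.0 and 0.19 in −Drago, -0.14 and -0.06 in −Salam, and 0.08 and 0.30 in Cont. psmd14.L and psma2.L were lower in −Drago than in Drago, and the muscle genes myh6.S and tnnc2.L were higher. For psma2.L this was not particular to −Drago, with means of -1.11 there, -1.10 in Salam and -1.62 in Cont. Drago minus −Drago was -3.25 ± 0.89 for myh6.S and -2.04 ± 0.66 for tnnc2.L (adjusted p = 0.663 and 0.759). Of the 26 muscle probe sets 1 was higher and 3 were lower in Drago at an unadjusted p under 0.05 (all probe sets 3.18% and 2.56%). In this comparison 9 of the 26 were above 0, up to 1.51. The medians of the 26 muscle probe sets lay between -0.22 and 0.02 in Drago and between 0.04 and 0.12 in −Drago. In the same comparison a probe set of krt70.S, an epidermal keratin, was higher in Drago by 2.88 ± 0.82, with means of 1.62 in Drago and -1.26 in −Drago (adjusted p = 0.7), and the medians of the 15 epidermal probe sets lay between -0.11 and 0.70 in Drago and between -0.08 and 0.17 in −Drago. A further pair of krt70.S probe sets was lower than in Cont, each in a different group. One lay at -3.18 ± 0.87 in −Salam (adjusted p = 0.617) and the other at -2.71 ± 0.82 in Salam (adjusted p = 0.819). In its comparison each was the only epidermal probe set lower at an unadjusted p under 0.05 (all probe sets 2.7% and 2.39%). Neither therefore repeated the other at that limit. In −Salam 1 of the 15 epidermal probe sets was higher than Cont at that limit (all probe sets 2.99%), and in Salam 0 (all probe sets 2.61%). Above Cont lay 6 of the 15 in −Salam, up to 1.49, and 4 in Salam, up to 0.82. The epidermal medians lay between -0.37 and 0.05 in Salam, -0.32 and 0.57 in −Salam, and 0.09 and 0.14 in Cont. col9a1.L, a cartilage collagen, was low in Cont at a mean of -1.30. Its differences were 2.48 ± 0.80 in Drago (adjusted p = 0.801) and 2.82 ± 0.80 in −Drago (adjusted p = 0.953). The medians of the 6 notochord and cartilage probe sets were between 0.06 and 0.45 in Drago, -0.32 and 0.25 in Salam, and -0.12 and 0.73 in −Drago. In −Salam they were between -0.46 and 0.0, and in Cont -0.35 and -0.34. The muscle actin acta1.S was likewise low in Cont, with a difference of 1.96 ± 0.65 in −Drago (adjusted p = 0.953). The muscle medians were -0.08 and -0.04 in Cont. The part of these markers in the members' differences was not tested.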

How the data were processed

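RNA of Rana pirica tails was hybridized to Affymetrix Xenopus laevis arrays. According to the methods, scans were read into GCOS, and MAS5 signals were made and set to the median of all samples in GeneSpring. The notes of the submitters on processing name GCOS and MAS5, with no version given. The deposited values are the authors' log2 signals, centred so that 0 is the median of a probe set across the 14 arrays (1 control array, left out by the study after a failed hybridization, is not used here). Groups came from the labels. Without signal levels, no filter on dim probe sets and no pseudocount could be applied.

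The 120 probe sets for spiked control RNAs were dropped from the 15611. limma 3.58.1 (R 4.3.3; lmFit and eBayes) was fitted to 15491 over all 14 arrays, 1 mean per group, with 9 residual and 5.53 prior degrees of freedom and Benjamini-Hochberg adjustment over all 15491 in each test. The script was tested on simulated data with changes larger than any difference of a member. That test does not show how smaller changes would be called. Symbols are those of the GEO platform annotation, which gave 1 symbol for 9304 of the 15491, several for 195 and none for 5992.

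The rule for named members took the 10 with the smallest p in the F test, the 2 with the smallest p in each comparison, all over 5 fold from Cont, and gps1, 12 in all. Every other member named, with or without array values, was chosen after its values were seen (partner and marker genes needed an unadjusted p under 0.01), and the members and lists were chosen with earlier results of these data known. Alternatives were quantile normalization, median centring, the replicate block, a fit to the 2 groups alone, tests without moderation, the Dap split (above or below 1) as a covariate, omission of _s_at and _x_at probe sets, and leaving out each array. The number of arrays limits the precision.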

Additional observations from a re-analysis of the deposited data

Results flagged for a closer look

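One result was singled out for the size of the gap between its removal differences for the 2 predators, a gap that the adjusted test did not call. For psma2.L, Drago minus −Drago was 2.60 and Salam minus −Salam was -2.40, and the difference of the 2 was 5.0 ± 0.98 (SE, limma, adjusted p = 0.435 over 15491 probe sets). All 3 Drago arrays were above all 3 −Drago arrays, and all 3 Salam arrays were below all 3 −Salam arrays. Over all probe sets, arrays did not overlap for 10.6% in Drago against −Drago and 10.1% in Salam against −Salam. No adjusted p passed, and no further psma2 probe set was among the members.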

How the results depend on the processing

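The count of members with an adjusted p under 0.05 was 0 in all 167 alternatives of the F test and the 7 comparisons, with the smallest adjusted p of a comparison between 0.396 and 0.692. The difference of each of the 12 named members in its comparison of smallest p kept its sign and stayed uncalled in all 240 alternatives. Many of the 240 could not change the sign. Leaving out an array of another group, the fit to the 2 groups alone and tests without moderation all keep the same difference. The comparison of each member was also chosen by its p in these data, so the 240 are no measure of robustness. Leaving out 1 array moved the fold of 7 of the 12 members by over 1.5 times. The log2 difference of psmd14.S in Drago against Salam was 2.70 without Drago 2 and 2.54 without Salam 1, against 1.90 with all arrays, and that of cops7b.S was 0.55 without Salam 1, against 1.28. In Drago against −Drago, psmd14.L was at 3.95 without Drago 1, against 3.10, and psmc1.L at 2.37 without Drago 2 and 4.4 without Drago 3, against 3.14. The Dap covariate gave 3.80 and 2.01 for the same pair of genes. Against Cont, adrm1.L in −Salam was at 3.59 without Cont 1 and 2.34 without Cont 2 (2.96), cops2.L in Salam at -2.22 and -3.57 (-2.89), and cops8.S in −Drago at -4.02 without −Drago 2 (-3.11). Over 5 fold from Cont, leaving out 1 array gave between 2 and 8 members for Drago, 2 and 4 for Salam, 2 and 10 for −Drago, and 3 and 6 for −Salam, against 3, 2, 2 and 3 with all arrays. Without Cont 1 these counts were 8, 4, 10 and 6, and without Cont 2 the count in −Salam was 5. Without Drago 2 it was 5 in Drago, without −Drago 3 it was 4 in −Drago, and without −Salam 1 it was 6 in −Salam. In Salam 1 member was left when probe sets ending in _s_at and _x_at were omitted, since cops2.L is of that kind. At an unadjusted p under 0.05, counts against Cont were, without Cont 2, 3 for Drago, 2 for Salam, 3 for −Drago and 4 for −Salam, and without Cont 1 the count in Drago was 10. It was 9 in Drago without Drago 2 and 5 in −Salam without −Salam 3, and in −Drago 8 with the Dap covariate and 3 with tests without moderation. For Drago against Salam it was 1 without Drago 1, 2 without Salam 2 and 1 with these 2 groups alone, against 4. For Salam against −Salam it was 2 whichever array of these groups was left out and 3 with tests without moderation, against 1. Same-numbered arrays did not deviate together over all probe sets tested (correlations of their deviations between -0.0194 and 0.0161). Dap was nevertheless low on every array numbered 3, and high on those numbered 1 except in −Drago. Whether arrays of 1 number shared their handling was not tested. The study left out its control 1, and how Cont 1 and 2 of the labels match its control numbers is not stated. The numbers of the Cont arrays may therefore not correspond to those of the other groups. With the replicate number as a block 0 members were called, with a smallest adjusted p of 0.651. Precision was limited by the 2 Cont arrays, on which every comparison with Cont rests.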

Other observations

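The 7 probe sets that name both copies of a proteasome gene at once (psma3, psmb2, psmc2, psmc5, psmc6, psmd1 and psmd6) had no unadjusted p under 0.05 in the F test or in the 7 comparisons. Between 4.94% and 5.86% of all probe sets had one in each of these tests, so 0 of 7 says little. The differences of the 7 from Cont lay between -1.33 (psmd6 in Drago) and 1.60 (psmc2 in Salam). For psmd6 this probe set was at -1.33 in Drago, where psmd6.L and psmd6.S read alone were at 0.45 and 1.05. For psma3 it was at -1.09 in −Drago and 0.27 in −Salam, where psma3.S was at -2.30 and -2.29 and psma3.L at 0.42 and 0.44.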
